A study of Mus musculus with 5 samples.

Results

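The 4 adult globin genes Hbb-bs, Hbb-bt, Hba-a1 and Hba-a2 and 5 further genes of red cell formation, Alas2, Slc4a1, Car2, Klf1 and Gata1, were followed through single-cell RNA sequencing (scRNA-seq) of mouse bone marrow (BM) after cyclophosphamide (CTX), an alkylating chemotherapy. The genes were taken by symbol, and all 9 were found among the 31053 genes of the matrices. They had been picked because their levels differed between these libraries, so those levels are described here and support no test. Whole BM came from BALB/c mice of 4 to 8 weeks that were untreated (naive), or had received 150 mg/kg of CTX 2 days (D2 CTX) or 7 days (D7 CTX) earlier. Cells of 3 mice were pooled in equal numbers into 1 library per condition. A second pair of libraries held CD11b+Ly6Chi monocytes, a sort for inflammatory monocytes, from naive and CTX-treated mice. The labels give no day for the treated sort, for which the study's methods name day 7.

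The labels call the whole BM cells CD45+ mononuclear cells, and dead cells were removed before capture. CD45 is scarce on maturing red cells, and a lysis of red cells is described for the sorted and stained preparations but not for the whole BM libraries. What share of the erythroid cells of the marrow reached the droplets is therefore not known. With 1 pooled library per group there is no replicate, so no test between conditions was possible, and every interval below is at 95% and covers counting error only. Fewer erythroid cells in the animals and fewer recovered into a library cannot be told apart.

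Red cells form in the marrow from progenitors that pass through a series of dividing erythroblasts, lose their nucleus and leave as reticulocytes. The transcription factor GATA1 and its target KLF1 switch on this program, heme is made on an enzyme chain that begins with ALAS2, and alpha and beta globin are loaded with that heme to form hemoglobin. SLC4A1, also called band 3, exchanges anions across the red cell membrane, and carbonic anhydrase 2, the product of Car2, interconverts carbon dioxide and bicarbonate. Late in maturation the cell makes globin and little else, and most other transcripts are lost.

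Both globin loci hold a pair of near-identical adult genes, which decides how far their counts can be told apart. In GRCm38, Hbb-bs lies at chr7:103826534-103828096 and Hbb-bt at chr7:103812524-103813996, both on the minus strand, with lower coordinates 14010 bases apart. Hba-a1 lies at chr11:32283511-32284465 and Hba-a2 at chr11:32296489-32297298 on the plus strand, with lower coordinates 12978 bases apart. The coding sequences of Hba-a1 and Hba-a2 differed at 1 of 429 bases, and the 74 bases after the stop codon that could be compared were identical. Those of Hbb-bs and Hbb-bt differed at 1 of 444 bases, but the 131 compared bases after the stop codon were only 70.7% identical. In the reference a 3′ assay thus finds little with which to separate the alpha pair, so the split of alpha UMIs between Hba-a1 and Hba-a2 is uncertain. The assignment of beta UMIs is uncertain as well, because the names Hbb-bs and Hbb-bt belong to the haplotype of the reference strain, and BALB/c mice carry another pair of adult beta genes. Of the single-copy members, Alas2 lies at chrX:150547375-150570638 (plus), Slc4a1 at chr11:102348824-102366203 (minus), Car2 at chr3:14886273-14900770 (plus), Klf1 at chr8:84901928-84905291 (plus) and Gata1 at chrX:7959260-7978071 (minus).

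The sequences just upstream of 5 members are printed from RefSeq promoters of GRCm38.p6, because the beta pair, an alpha gene, the heme enzyme and the regulator Klf1 are the genes on which the results turn. The table held 7 of the 9 members. Capitals mark AGATAA and TGATAA, letters that GATA factors bind, and CACCC, letters that KLF1 binds, searched on both strands. Bases that lie in an annotated transcript of the gene were left out, so each run ends at the outermost start of its gene. The windows are chr7:103828097-103828178 (minus strand, Hbb-bs), chr7:103813997-103814173 (minus, Hbb-bt), chr11:32296242-32296488 (plus, Hba-a2), chrX:150547167-150547374 (plus, Alas2) and chr8:84901732-84901927 (plus, Klf1).
Hbb-bs: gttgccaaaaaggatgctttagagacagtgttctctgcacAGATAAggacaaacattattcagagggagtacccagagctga
Hbb-bt: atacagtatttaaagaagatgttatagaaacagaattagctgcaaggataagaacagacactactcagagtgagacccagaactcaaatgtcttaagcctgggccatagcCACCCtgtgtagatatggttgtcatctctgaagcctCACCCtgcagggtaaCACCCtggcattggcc
Hba-a2: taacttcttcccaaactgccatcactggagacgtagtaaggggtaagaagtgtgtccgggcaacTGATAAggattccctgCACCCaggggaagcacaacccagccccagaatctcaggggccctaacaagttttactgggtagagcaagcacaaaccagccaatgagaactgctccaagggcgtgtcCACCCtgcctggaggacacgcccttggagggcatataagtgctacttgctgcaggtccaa
Alas2: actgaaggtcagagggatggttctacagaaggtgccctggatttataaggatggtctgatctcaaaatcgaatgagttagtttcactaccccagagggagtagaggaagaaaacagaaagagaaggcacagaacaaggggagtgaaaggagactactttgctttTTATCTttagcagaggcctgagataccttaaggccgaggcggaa
Klf1: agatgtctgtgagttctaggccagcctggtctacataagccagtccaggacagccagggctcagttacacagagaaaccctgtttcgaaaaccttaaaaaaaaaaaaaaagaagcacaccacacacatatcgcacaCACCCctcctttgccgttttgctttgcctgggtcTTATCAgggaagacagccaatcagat

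In the 250 bases upstream of the start, 5 of the 7 members held AGATAA or TGATAA, and Hbb-bt and Gata1 held neither. Among 32851 mouse promoters of this length, 16.6% held one or the other. CACCC was in all 7 windows, for Hbb-bs and Alas2 among the bases not printed, and in 52.0% of all promoters. The alpha pair shared an identical run of 247 bases there, whereas the longest run shared by the beta pair was 14 bases. A match of letters is a description and does not show that a factor binds.

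The 5 libraries held 2223 to 8605 barcodes and 22694817 to 68459527 unique molecular identifiers (UMIs, counts of captured RNA molecules), and pairs of libraries shared 2 to 16 barcodes. A barcode was kept as a cell if it had 200 or more genes and under 20% mitochondrial UMIs, which left 7104 in naive BM, 6126 on D2 and 8290 on D7. The 9 members were left out of the variable genes from which clusters were formed. Their UMIs still counted in each cell's total for normalization, and members could stand among the leading genes used in naming. The members may thus have shaped the classes in part.

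Erythroid cells were abundant in naive BM and scarce in both treated libraries. They were 441 of 7104 kept cells in naive BM (6.21%, interval 5.66 to 6.79), 53 of 6126 in D2 CTX BM (0.865%, 0.649 to 1.13) and 20 of 8290 on D7 (0.241%, 0.147 to 0.372). Relative to naive BM the share differed by −2.84 on the log2 scale on D2 (−3.28 to −2.43) and by −4.69 on D7 (−5.41 to −4.04). These cells formed 2 clusters. The larger one detected all 12 erythroid markers, among them Epor (the erythropoietin receptor), with a summed level of 5256, 4536 and 4668 CPM (that is, the UMIs of a gene or list scaled to a common total of all UMIs of those cells) in naive BM, D2 CTX and D7 CTX BM. The smaller one detected 11 of 12 in naive BM, with a sum of 2635 CPM, but none of the 12 was among its 10 leading genes, which included the globins, Alas2 and Bpgm. Markers of mature neutrophils summed higher in this smaller cluster, to 9786 CPM in naive BM, so its name is uncertain. Outside the erythroid clusters all 12 erythroid markers were detected in each library too, with sums of 81.4, 48.2 and 2.30 CPM. The clusters were named from these erythroid markers, so their levels lend the name no separate support.

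The clusters differed in size by condition. The larger cluster held 414, 17 and 17 cells in naive BM, D2 CTX and D7 CTX BM, and its share was lower on both days, with log2 ratios of −4.39 (−5.19 to −3.70) on D2 and −4.83 (−5.62 to −4.13) on D7. The smaller cluster held 27, 36 and 3 cells. On D2 its share relative to naive BM was 0.63 log2 units, with an interval of −0.13 to 1.40 that spans 0. On D7 it was −3.39 (−5.76 to −1.69). Median depth in the larger cluster was 15878, 32458 and 22871 UMIs, against 2790, 1990.5 and 952 in the smaller one.

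A further group of erythroid barcodes lay below the cell filter. Barcodes with at least 50% of their UMIs from the 4 globin genes that the filter removed numbered 211 in naive BM, 200 on D2 and 23 on D7. They held a median of 118, 89.5 and 93 genes, and the globins made a median of 87.7%, 88.7% and 87.3% of their UMIs. Over all deposited barcodes, those with at least 50% globin UMIs were 3.09% (2.71 to 3.50) of naive BM, 3.34% (2.92 to 3.81) of D2 CTX BM and 0.279% (0.179 to 0.415) of D7 CTX BM. No barcode of these libraries had under 500 UMIs, so shallower ones of this class are not counted. The study's text states more cells than the libraries hold, by unlike amounts, and the effect on these shares was not tested. The share of this globin-dominated class relative to naive BM was 0.12 log2 units on D2, with an interval of −0.15 to 0.39 that spans 0, and lower on D7, at −3.47 (−4.14 to −2.86), whereas the larger cluster of gene-rich cells was low on both days.

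**Figure D1:**
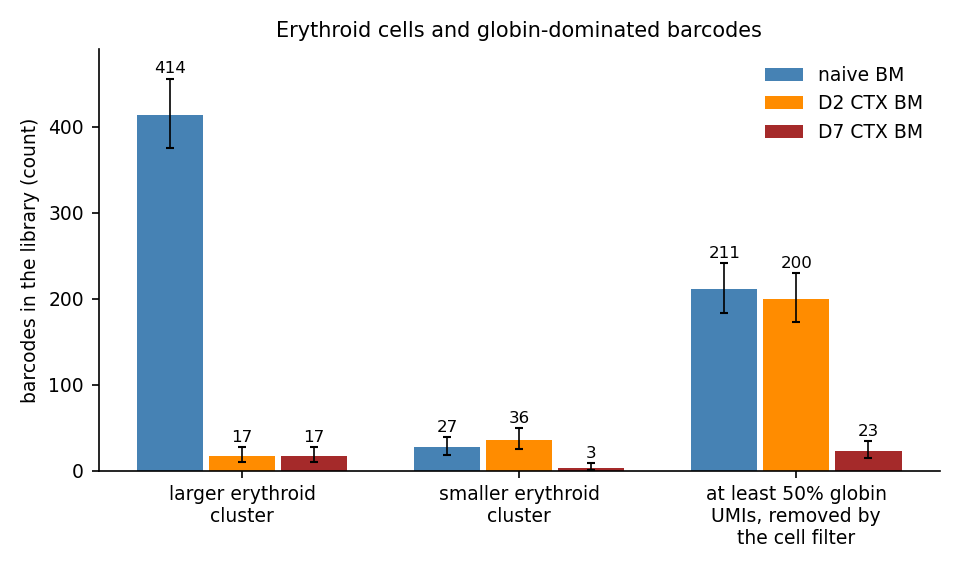
Erythroid barcodes of the 3 whole BM libraries, split into the larger cluster, the smaller cluster and barcodes of at least 50% globin UMIs removed by the cell filter, as counts of barcodes in each library with exact 95% Poisson intervals. The larger cluster falls from 414 cells to 17 on both days, while the removed class holds 211 barcodes in naive and 200 in D2 CTX BM and 23 on D7.

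The globin UMIs of a library lay in different places by condition. Naive BM held 1242215 globin UMIs, D2 CTX BM 314753 and D7 CTX BM 67778. In naive BM the larger cluster carried 62.2% of them and all barcodes removed by the filter 29.3%. In D2 CTX BM the larger cluster carried 4.87%, the smaller cluster 17.8% and the removed barcodes 67.2%. In D7 CTX BM the larger cluster again carried most, 54.2%, with 42.3% in removed barcodes. Cells outside the erythroid clusters that had at least 1% globin UMIs held 3.41% in naive BM, 9.10% on D2 and 0% on D7, and all other kept cells 0.672%, 1.02% and 1.82%.

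The 4 globin genes together reached 105740 CPM in erythroid cells of naive BM, 79050 on D2 and 84529 on D7. Against naive BM the sums differed by −0.42 (−0.43 to −0.41) on D2 and −0.32 (−0.34 to −0.31) on D7. The D2 value is a mix of unlike cells and its sign depends on how they are summed: it was −2.37 in the larger cluster alone, 1.17 as the mean of the cells' CPM and 1.01 when the members entered the clustering. Within the larger cluster the sum was 99920 CPM in naive BM, 19309 on D2 and 83029 on D7. Within the smaller cluster it was 604249, 512099 and 208163 CPM, the last from 3 cells.

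By gene, the beta globin Hbb-bs had the most UMIs of the members in the larger cluster, at 57836 CPM in naive BM, 11421 on D2 and 50147 on D7. Hbb-bt, the minor adult beta gene, stood at 5646, 1668 and 5041 CPM. Hba-a1 stood at 28075, 4293 and 21878 CPM, and Hba-a2 at 8363, 1927 and 5963. Each of the 4 was lowest on D2, with log2 ratios to naive BM of −2.34 for Hbb-bs, −1.76 for Hbb-bt, −2.71 for Hba-a1 and −2.12 for Hba-a2. On D7 the same ratios lay between −0.49 and −0.16.

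Alas2, which makes the committed step of heme synthesis in red cells, followed the globins in the larger cluster at 300.2 CPM (288 to 313) in naive BM, 83.1 (64.3 to 106) on D2 and 179 (141 to 223) on D7. Slc4a1 stood at 736, 253 and 463 CPM. The log2 ratios to naive BM were −1.85 (−2.23 to −1.50) and −1.54 (−1.75 to −1.34) on D2, and −0.75 (−1.09 to −0.43) and −0.67 (−0.88 to −0.47) on D7.

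The remaining 3 members differed less. Car2 stood at 3457, 3910 and 3368 CPM in the larger cluster, a log2 ratio of 0.18 (0.12 to 0.23) on D2 and −0.04 (−0.11 to 0.04) on D7. Gata1 stood at 153, 150 and 147 CPM, with ratios of −0.03 (−0.31 to 0.25) and −0.06 (−0.44 to 0.31). Klf1 stood at 389, 253 and 411 CPM, with a ratio of −0.62 (−0.83 to −0.41) on D2 and no detectable difference on D7, at 0.08 (−0.14 to 0.30). The regulators Gata1 and Klf1 were nearly absent from the smaller cluster, which had 1 UMI of each in naive BM and 1 and 2 UMIs on D2, while Alas2 reached 2026 CPM and Slc4a1 1494 CPM there in naive BM.

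Genes that were at least 2-fold apart, with 1 CPM added, were counted among those with 200 UMIs in all and 20 CPM in either library. In the larger cluster on D2, 6 of 9 members were at least 2-fold lower, beside 7.68% of the 4584 genes tested that were lower and 8.09% that were higher. On D7 none of the 9 was 2-fold apart there, beside 4.44% of 4395 genes (1.34% higher and 3.09% lower). With both clusters together 0 of 9 members passed on D2, beside 13.4% of genes (6.46% higher, 6.94% lower), and 0 of 9 on D7, beside 4.4% (1.38% higher, 3.01% lower). The members were chosen from these contrasts and nothing is read from their counts.

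The erythroid cells of naive BM could be laid out by how much of their RNA was globin, from under 1% to over 50%. Taken over non-globin UMIs, Alas2 rose along this order, from 8.64 CPM in the 58 cells under 1% globin to 569 in the 98 cells at 10% to 20% and 4542 in the 23 cells over 50%, and reached 23237 in the removed barcodes. Slc4a1 went from 7.34 to 1450 to 4390 CPM, and stood at 4868 in the removed barcodes. Car2 started high, at 2533 CPM, reached 7737 over 50% globin and fell to 2564 in the removed barcodes. Klf1 lay at 269 CPM in the lowest range and 729 at 20% to 50%, and Gata1 at 117 and 213. Each had 2 UMIs, 47.0 CPM (5.70 to 170), in the 211 removed barcodes. That interval holds the 117 CPM of Gata1 in the lowest range but not the 269 of Klf1. Median genes per cell fell from 5462 in the lowest range to 118 in the removed barcodes. The order uses the globins themselves, so the globin levels along it are set by the choice, and the other genes share their cells and depth.

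**Figure D2:**
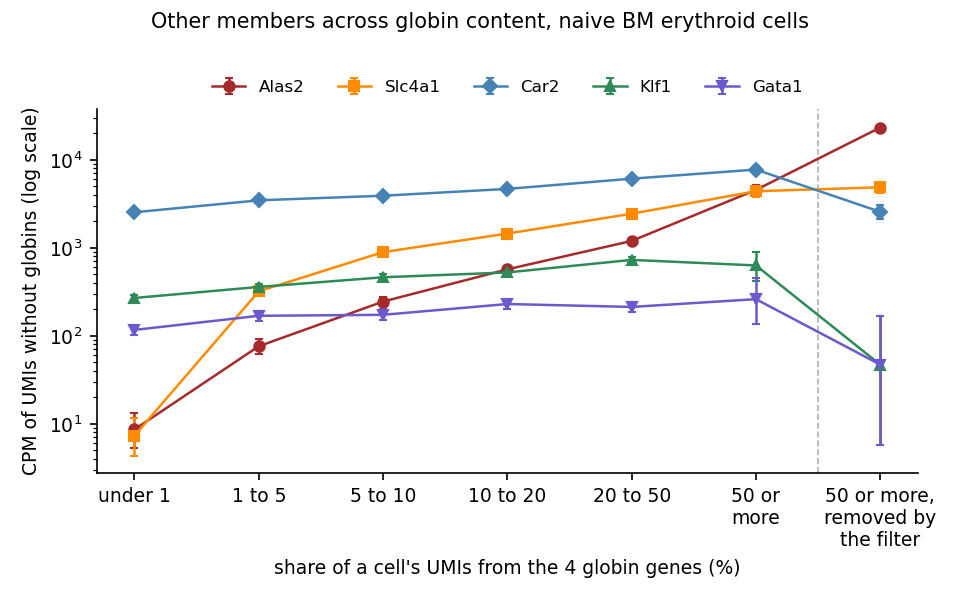
Levels of Alas2, Slc4a1, Car2, Klf1 and Gata1 in erythroid barcodes grouped by the percent of UMIs from the 4 globin genes, in CPM of non-globin UMIs on a log axis with exact Poisson intervals, for naive BM alone. Alas2 goes from 8.64 to 23237 CPM along the order while Klf1 and Gata1 end at 2 UMIs each.

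The treated libraries filled this order unevenly. In D2 CTX BM 8 of the 17 cells of the larger cluster (47.1%, 23.0 to 72.2) were under 1% globin, against 58 of 414 (14.0%, 10.8 to 17.7) in naive and 2 of 17 (11.8%, 1.46 to 36.4) on D7. These 8 cells were deep, with 50182 to 130089 UMIs each, and carried 86.6% of the UMIs of their cluster, so sums over the cluster mostly describe them. In naive BM 7 of the 58 cells and 52 of all 414 cells of the cluster were marked as doublets. On D2 none of the 17 was, these 8 included. In the 8 cells Alas2 had 0 UMIs, with an exact upper limit of 5.37 CPM, Car2 stood at 3499 CPM, Klf1 at 214 and Gata1 at 137. In D7 CTX BM the 6 cells at 10% to 20% globin had 412 CPM of Alas2, 1045 of Slc4a1, 4976 of Car2, 470 of Klf1 and 173 of Gata1, set beside 569, 1450, 4667, 525 and 230 CPM in the naive cells of that range.

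The split within each globin pair differed between the erythroid classes. The share of alpha UMIs assigned to Hba-a1 was 77.0% (76.9 to 77.2) in the larger cluster of naive BM and 51.5% (50.8 to 52.1) in the smaller one, and 52.0% in the removed barcodes. It was 69.0%, 51.1% and 52.8% in the same groups of D2 CTX BM, and 78.6%, 52.0% and 53.8% on D7. In naive BM it peaked at 82.4% in cells of 1% to 10% globin and fell to 58.4% over 50%. The larger cluster lay above the smaller one in all 3 libraries, but the pair is identical over the compared bases after the stop codon, and how the reads were assigned was not tested. Hbb-bt, under the same limit for a strain with another haplotype, was assigned 8.89%, 12.7% and 9.13% of beta UMIs in the larger clusters of naive BM, D2 CTX and D7 CTX BM. In the smaller cluster it had 15.9%, 10.5% and 11.6%, and in removed barcodes 13.8%, 8.84% and 9.20%, where the D7 value of the smaller cluster rests on 611 beta UMIs. No single order held across globin shares: in erythroid cells of 20% to 50% globin the share was 10.4% (10.3 to 10.5) in naive BM, 11.6% (11.03 to 12.11) on D2 and 12.8% (11.96 to 13.58) on D7.

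**Figure D3:**
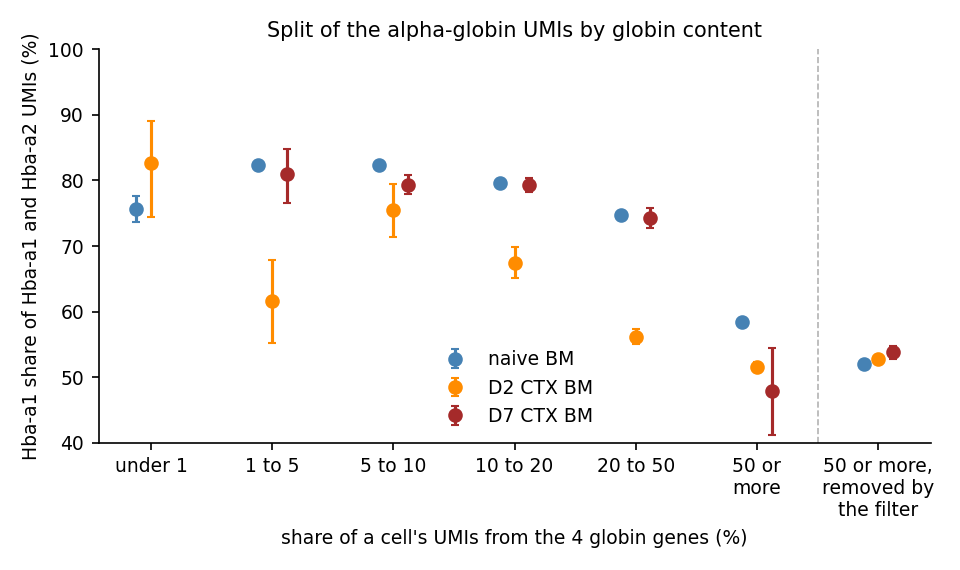
Percent of alpha globin UMIs assigned to Hba-a1 in erythroid barcodes by globin share and in removed barcodes, with exact binomial intervals, for the 3 whole BM libraries. In naive BM the share goes from 82.4% at 1% to 10% globin to 58.4% over 50%, and the removed barcodes of the 3 libraries lie at 52.0% to 53.8%; points with an interval of 30 percentage points or more are left out.

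Of 92 erythroid genes listed in 8 groups, 91 were in the matrices, and the 82 that are not members were read beside the members. On D2 in the larger cluster 29 of the 69 tested were at least 2-fold lower and 4 higher, beside 7.68% of all 4584 genes lower and 8.09% higher. Of the 10 heme synthesis genes other than Alas2, 9 were lower, and the median over all 11, Alas2 included, was −1.45. Among the 10, Alad, which joins the first heme precursors, went from 2031 to 824 CPM and Tmem14c from 1630 to 548, whereas Cpox stood at 446 and 500 CPM. Of the membrane and skeleton genes 7 of 17 were lower, including Sptb (beta spectrin) and Rhd, and none was higher. Of the iron genes 3 of 8 were lower, including Tfrc, the transferrin receptor, at 614 and 233 CPM, and Fth1, a ferritin chain, at 7629 and 3561, whereas Tfr2 stood at 49.5 and 75.6. Of the genes of gas exchange and red cell metabolism 4 of 8 were lower and 1 higher, and Prdx2, a peroxiredoxin, stood at 3823 and 1608 CPM. Of the terminal maturation genes 5 of 10 were lower, among them Fam210b at 116 and 34.0 CPM and Isg20 at 369 and 123.

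The 4 listed genes that were higher on D2 were Myb, Cbfa2t3, Car1 and Stat5a. Myb, a transcription factor of immature progenitors, stood at 52.0 CPM in naive BM and 407 in D2 CTX BM, and the corepressor gene Cbfa2t3 at 22.0 and 151. Car1, an early erythroid carbonic anhydrase, stood at 1152 and 2478, and Stat5a at 25.1 and 56.7. Of the 11 listed transcription factors that are not members only Klf3 was lower, Myb and Cbfa2t3 were higher, and Tal1 stood at 211 and 195 CPM. The median log2 ratio over the 69 genes was −0.84, and over all 4584 genes tested 0.08.

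The globin share was then capped at 1%, which does not make it equal in the 2 libraries. The 3 globin genes tested there had a median log2 ratio of −2.08. When only erythroid cells under 1% globin were set side by side, 8 on D2 and 58 in naive BM, 6 of 44 listed genes were lower and 2 higher, beside 2.28% and 2.05% of 2195 genes, 4.33% in either direction. Myb (468 against 147 CPM) and Cbfa2t3 (173 against 62.1) were again higher, and Urod, Tmem14c, Tfrc, Rhd and Hemgn were among the lower ones. Of the 6 members tested there, Hba-a1 and Hba-a2 were lower, while Gata1, Klf1, Car2 and Hbb-bs were less than 2-fold apart. In this smaller pool the minimum of 200 UMIs left out lowered genes on simulated data. Without the filter on low genes 1498 of 12227 genes were higher and 1103 lower, against 45 and 50 of 2195 with it. Both counts may be understated, and which of them more was not settled.

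On D7 in the larger cluster 4 of the 68 listed genes tested were lower and none was higher, beside 3.09% lower and 1.34% higher of all 4395 genes. The 4 were Ank1 (ankyrin), Tspo2, Hmox2 and Jak2, the last with 10 UMIs. Heme synthesis had 0 of 10 other genes on either side, and the median over all 11, Alas2 included, was −0.13. On that day Fth1 stood at 6980 CPM, Prdx2 at 3327 and Myb at 102, all less than 2-fold from naive BM. Markers of neutrophil precursors, which are not erythroid genes, summed to 2433, 201 and 7249 CPM in the larger cluster and 9033, 11236 and 6336 in the smaller one, against 45258, 27958 and 79420 outside the erythroid clusters. Those of mature neutrophils, all 7 of which were detected in the larger cluster of each library, summed to 146, 350 and 524 CPM there and 6215, 8972 and 9365 outside. In the smaller cluster they summed to 9786 CPM in naive BM, 7111 on D2 and 27208 on D7, with 7, 7 and 5 of 7 detected, beside 2635, 3195 and 3168 for the erythroid markers. All these marker sums are over all UMIs, globins included. In the smaller cluster the globins made a median of 56.8%, 47.1% and 20.2% of a cell's UMIs in the 3 libraries. Over non-globin UMIs, as used for the late genes below, its neutrophil sums would be higher. The part of these neutrophil genes in any value of either cluster was not tested.

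Beside its neutrophil markers, the smaller cluster held some late genes at higher levels than the larger one. It had 884, 779 and 146 UMIs of mature neutrophil markers in naive BM, D2 CTX and D7 CTX BM. Of erythroid markers it had 238, 350 and 17. Over non-globin UMIs in naive BM, Mkrn1 stood at 4839 CPM against 304 in the larger cluster, Xpo7, a nuclear exporter, at 3245 against 8.04, and Bnip3l, which serves the clearance of mitochondria, at 3077 against 293. Bpgm, which makes the regulator of oxygen release 2,3-bisphosphoglycerate, stood at 1566 against 36.0. Car1 and Myb had 1 and 3 UMIs there. In D2 CTX BM the smaller cluster had 6286 CPM of Mkrn1, 3124 of Xpo7 and 2993 of Bpgm. The embryonic globins Hbb-bh1, Hbb-y, Hba-x and Hbb-bh2 had 0 or 1 UMI in the erythroid cells of any library.

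Globin UMIs were also found in cells of other classes, and the source of these UMIs was not tested. Outside the erythroid clusters the sum was 1326 CPM (1314 to 1337) in naive BM, 964 (953 to 974) on D2 and 18.2 (17.2 to 19.3) on D7. On D7 the log2 ratio to naive BM was −6.18 (−6.27 to −6.10). All 5 members tested, the 4 globins and Car2, were at least 2-fold lower, beside 15.8% of 5422 genes, 15.3% lower and 0.535% higher. Scaling by the median of gene ratios moves all genes of this contrast by 0.51 log2 units, with 219 genes then higher and 251 lower. Alas2 and Slc4a1 were below the minimum of UMIs there, with 164, 109 and 4 UMIs of Alas2 and 106, 8 and 3 of Slc4a1 in naive BM, D2 CTX and D7 CTX BM. The D2 log2 ratio of Slc4a1 was −3.52 (−4.77 to −2.49). Of the 33 other listed genes tested on D7 outside the erythroid clusters 14 were lower, beside the 15.3% of all genes, including Car1 at 58.0 and 0.622 CPM, Zfpm1, a cofactor of GATA1, at 35.4 and 4.13 and Prdx2 at 152 and 50.02. On D2 1 of 35 was higher, Rsad2, an interferon-induced gene, beside 3.32% of all genes. On D2 none of the 5 was 2-fold apart, beside 4.36% of 6055 genes, of which 201 were higher and 63 (1.04%) lower, or 116 and 105 after that scaling, with all genes moved by 0.19.

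Few cells carried most of it. In naive BM 66 of 6663 cells (0.991%) had at least 1% globin UMIs and held 83.5% of the globin UMIs outside the erythroid clusters, and in D2 CTX BM 54 of 6073 (0.889%) held 89.95%. In D7 CTX BM 0 of 8270 cells did, with an exact upper limit of 0.0446%. Of these cells 22 of 66 and 3 of 54 were marked as doublets, beside 352 of 6663 and 300 of 6073 of all cells outside the erythroid clusters. The number of cells marked was set per library by its size and is no count of detected doublets. Without the cells of at least 1% globin the sums were 220 CPM (216 to 225), 97.3 (94.0 to 101) and 18.2. The D2 ratio was then −1.18 (−1.24 to −1.12) and the D7 ratio −3.60 (−3.68 to −3.51). With all cells the D2 ratio was −0.46 (−0.48 to −0.44) and it changed sign with the choice of cells, at 0.11 without marked doublets and 1.71 in neutrophils alone.

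By class, the sum over all cells was uneven in naive BM, from 122 CPM in plasma cells to 13969 in stromal or endothelial cells. Of the latter, 6 of the 7 cells of at least 1% globin were marked as doublets, beside 20 of all 89. Neutrophils had 621 CPM in naive BM, 2027 on D2 and 27.5 on D7. They were 26 of the 54 cells of at least 1% globin on D2, and 2302 of all 6073 cells outside the erythroid clusters. Without cells of at least 1% globin, neutrophils had 329, 152 and 27.5 CPM, B lineage cells 246, 115 and 11.1, and monocytes 183, 82.1 and 15.3. In each of these classes naive BM was highest and D7 CTX BM lowest.

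**Figure D4:**
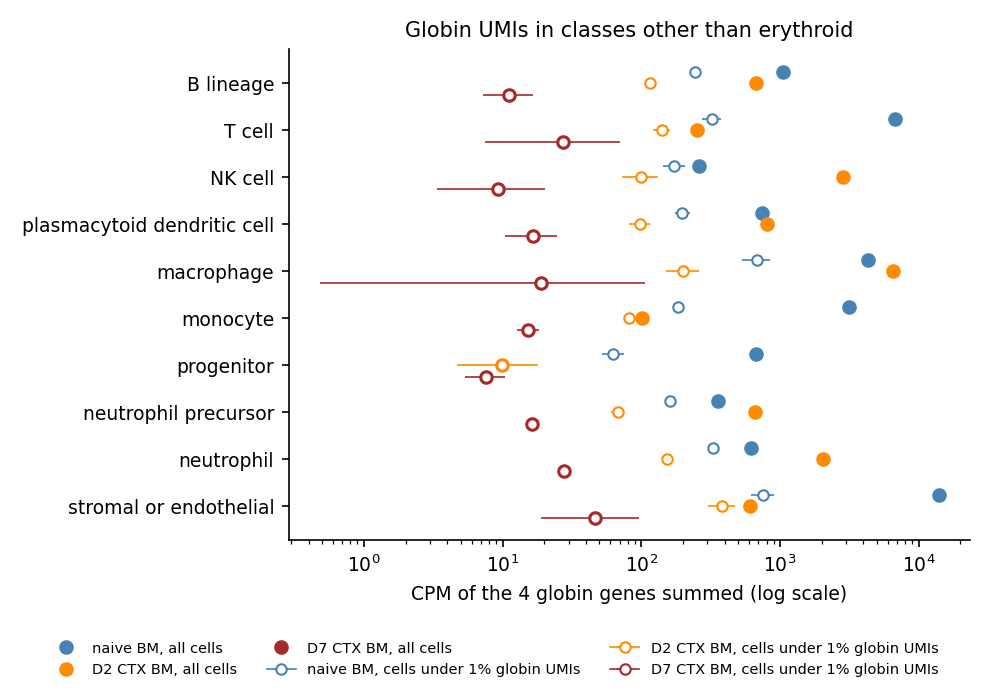
Summed CPM of the 4 globin genes by cell class outside the erythroid clusters on a log axis for naive, D2 CTX and D7 CTX BM, with all cells (filled points) and without cells of at least 1% globin UMIs (open points, with exact Poisson intervals). Without those cells, naive BM lies above D2 CTX BM and D7 CTX BM is lowest in neutrophils, B lineage cells and monocytes.

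In the remaining cells globin UMIs per cell varied less with depth than the CPM did. In naive BM the shallowest of 4 depth classes of cells had 0.996 globin UMIs per cell and the deepest 1.83, while the CPM went from 596 down to 140. In D2 CTX BM the same classes had 0.340 and 0.916 per cell, and in D7 CTX BM 0.117 and 0.141. After each cell was thinned to 1000 UMIs, 24.1% of cells outside the erythroid clusters had a globin UMI in naive BM, 11.6% on D2 and 1.81% on D7, against 94.4%, 87.8% and 88.9% of erythroid cells. Unthinned, the shares were 62.9%, 32.6% and 11.2%.

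The sorted monocytes were nearly free of globin. The naive sort held 11 globin UMIs in 1891 cells (0.494 CPM, 0.246 to 0.883) and the CTX sort 58 in 2564 (2.03 CPM, 1.54 to 2.62), a log2 ratio of 2.04 (1.09 to 3.12). A single cell carried 32 of the 58, and after thinning to 1000 UMIs 3 of 1870 and 1 of 2547 cells had a globin UMI, so no order is read. No member had the 200 UMIs to be counted there, where 0.955% of 5549 genes were 2-fold apart, 0.144% higher and 0.811% lower. Slc4a1 had no UMI in either sort, Alas2 0 and 1, Gata1 1 and 0, Klf1 4 and 5 and Car2 5 and 9.

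Car2, Klf1 and Gata1 were also found in cells other than erythroid ones. The cluster led by Pf4, a platelet gene, held 133, 142 and 61 cells and stayed unnamed. Next among its leading genes were Prss34 and Mcpt8, genes of basophils and mast cells that also lead the basophil cluster. It had Gata1 at 59.4 CPM (48.9 to 71.4) in naive BM, 47.8 (41.2 to 55.1) on D2 and 28.4 (16.8 to 44.8) on D7, Klf1 at 75.1, 33.5 and 18.9, and Car2 at 422, 280 and 273, while its globin sum was 185, 74.5 and 18.9 CPM. This cluster held 113 of the 134 Gata1 UMIs outside erythroid cells in naive BM and 188 of 211 on D2. Gata1 was higher outside the erythroid clusters on D2 by 0.87 (0.55 to 1.19), although within the Pf4 cluster it was not higher than in naive BM, and the cluster had a median of 25420 UMIs per cell against 10512.

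Car2 was also present in lymphoid cells. B lineage cells had 86.5 CPM (80.9 to 92.5) in naive BM, 62.7 on D2 and 130 on D7, and NK cells had 97.4, 118 and 135. The B lineage values pool clusters of unlike Car2 level. The one led by Myl4 had 103, 69.3 and 138 CPM, in 609, 49 and 121 cells. The clusters led by Ms4a1 and Rag1 stood at 33.9 and 31.2 CPM in naive BM and 55.7 and 53.5 on D2. The one led by Vpreb1 stood at 126 in naive BM and 104 on D2. T cells had 41.8, 6.79 and 68.6 CPM, from 21, 9 and 10 UMIs. Neutrophils had 11.3, 2.29 and 0.178 CPM. Klf1 and Gata1 stood at 0 to 2 UMIs in B lineage cells of each library. The fall of Car2 outside the erythroid clusters on D7, to 8.996 from 55.1 CPM, thus did not appear in the pooled B lineage cells. These were 214 of 8270 cells on D7 and 1761 of 6663 in naive BM. Basophils held 3, 7 and 2 Gata1 UMIs, at 14.9, 45.6 and 21.5 CPM, with intervals that overlap. Stromal or endothelial cells had Car2 at 556, 199 and 86.8 CPM in naive BM, D2 CTX and D7 CTX BM. Their Klf1 stood at 55.0, 22.6 and 6.68 CPM, from 9, 5 and 1 UMIs, and their Gata1 at 24.5, 22.6 and 13.4, from 4, 5 and 2. In naive BM 20 of these 89 cells were marked as doublets.

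**Figure D5:**
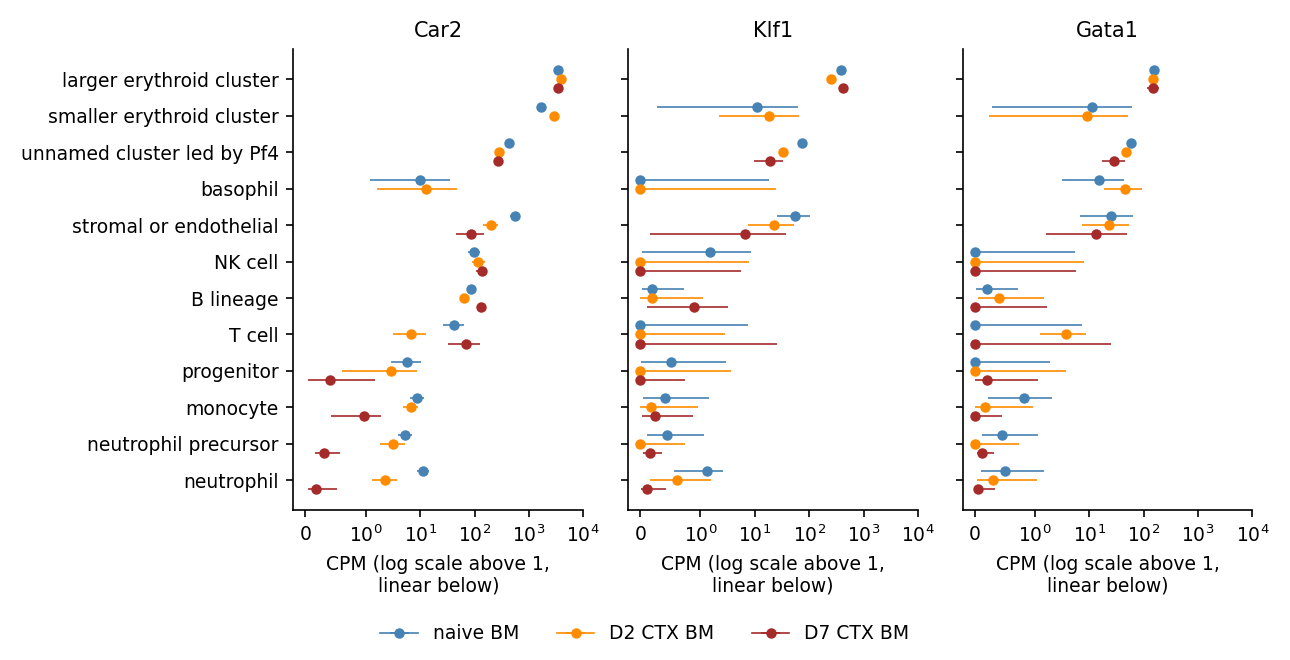
CPM of Car2, Klf1 and Gata1 by cell class in the 3 whole BM libraries with exact Poisson intervals, on an axis that is logarithmic above 1 CPM and linear below, with groups under 20 cells left out except the larger erythroid cluster. The larger erythroid cluster is highest for all 3 genes, the Pf4 cluster holds Gata1 at 28.4 to 59.4 CPM, and Car2 lies at 62.7 to 130 CPM in B lineage cells.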

How the data were processed

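Raw UMI counts of 5 libraries were used as deposited. The authors made these counts with Cell Ranger 3.1 against mm10 and analysed them in Seurat 5.0, per the submitters' processing notes. No normalization had been applied, and the matrices hold cell-called barcodes. The study's text states more cells than they hold, by amounts that differ between libraries. Cells with at least 200 genes and under 20% mitochondrial UMIs were kept, as in the study's methods. Whole BM was clustered in Seurat 5.3.0 (R 4.3.3) on 2000 variable genes without the members, with reciprocal PCA integration, 30 components and resolution 0.8. Clusters were named from fixed markers by a score whose limits were set after the data were seen. Doublets were marked with Scrublet (scanpy 1.11.5) at 0.8% per 1000 cells and kept. This fixed the number of top-scoring cells marked, at 404 in naive BM, 300 on D2 and 550 on D7. The tool's own threshold called 194, 223 and 0 there.

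Counts were summed per library and class and given as CPM with exact Poisson intervals, ratios with exact conditional intervals and shares with Clopper-Pearson intervals, all at 95% (Python 3.11.15, numpy 2.4.6, scipy 1.17.1, pandas 2.3.3; figures with matplotlib 3.10.9). For a count of 0 the upper end of the exact interval is given. With 1 library per group no test between groups was made. A gene was called at 2-fold with 1 CPM added, if it had 200 UMIs over both libraries and 20 CPM in 1 of them. By rule the named genes were the members, per list the 2 highest in naive erythroid cells and the highest and lowest ratio of each contrast, and the genes most like the globins or Gata1. Not all are printed, some genes are not reported here, and Tal1, Cbfa2t3, Ank1 and the embryonic globins were named after their values were seen. The calls were tested on simulated data, where the minimum of 200 UMIs left out lowered genes in the comparison of erythroid cells under 1% globin. The members and the gene lists were chosen with earlier results of these data known.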

Additional observations from a re-analysis of the deposited data

Results flagged for a closer look

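Globin signal lay in barcodes that the comparisons of kept cells do not use. The cell filter removed 211 barcodes with at least 50% globin UMIs in naive BM, 200 in D2 CTX BM and 23 in D7 CTX BM. All removed barcodes together held 29.3%, 67.2% and 42.3% of the globin UMIs of these libraries. Neither sorted monocyte library had such a barcode among its 332 and 414 removed ones.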

How the results depend on the processing

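No paired analysis was possible because each group is 1 library, and no replicate could be left out. Alternatives on the larger cluster alone, on erythroid cells under 1% globin, on cells of at least 1% globin and on all deposited barcodes were chosen after seeing the data. The cause of the differences below was not tested. The D2 globin ratio outside the erythroid clusters, −0.46, reversed to 0.11 with doublets removed, 0.56 as the mean of the cells' CPM and 1.71 in neutrophils alone. It was −0.67 with a strict cell filter, −0.56 with none, −1.60 with the members in the clustering, −0.29 at resolution 0.4, −0.23 without integration, −0.54 without the 20 most abundant genes and also as UMIs per cell, −0.67 in B lineage cells and −1.18 without cells of at least 1% globin. The D2 ratio in erythroid cells, −0.42, reversed to 1.01 with the members in the clustering and 1.17 as the mean of the cells' CPM. In the order strict filter, doublets removed, resolution 0.4, no integration, without the 20 genes and larger cluster alone it was −0.98, −0.45, −2.56, −1.32, −0.40 and −2.37. The D2 share of erythroid cells, −2.84, was −3.41 with the strict filter, −2.23 with the members in the clustering, −1.01 at resolution 0.4, −4.39 in the larger cluster and −1.14 over all deposited barcodes. The D7 ratio outside, −6.18, was −4.58 without a cell filter, −5.64 with doublets removed, −5.81 without the 20 genes, −5.68 as UMIs per cell, −5.76 as the mean of the cells' CPM, −6.57 in B lineage cells, −4.49 in neutrophils and −3.60 without cells of at least 1% globin. The D7 ratio in erythroid cells, −0.32, was −0.31 with the strict filter, −0.35 with doublets removed, −0.44 with the members, −1.44 at resolution 0.4, −0.26 without integration, −0.29 without the 20 genes, −0.042 as the mean of the cells' CPM and −0.27 in the larger cluster. The D7 share, −4.69, was −2.56 at resolution 0.4, where erythroid cells and the Pf4 cells merged. Without a filter on low genes the genes past 2-fold went from 264 to 724 (D2) and 858 to 2218 (D7) outside the erythroid clusters, 620 to 3313 and 194 to 2599 in erythroid cells, 723 to 3504 and 195 to 2611 in the larger cluster, 95 to 2601 in erythroid cells under 1% globin and 53 to 140 in sorted monocytes. Scaling by the median of gene ratios gave 470 on D7 outside. Of the shares of cells with a globin UMI, 9 values moved out of their interval with thinning to 2000 UMIs or with none. In naive BM the share outside the erythroid clusters was 24.1% at 1000 UMIs, 36.6% at 2000 and 62.9% unthinned. The 39 other values of the main results moved by less than their interval or by under 1.5-fold.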

Other observations

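Over 37 combinations of cell class and library, which share libraries and depth, the genes whose log level was most like the mean of the 4 globin genes among 10900 genes included Ermap and Car1 (Pearson r = 0.75 each), Trim10 (0.74), Cd59a and Ank1 (0.72 each), Rec114 and Aqp1 (0.71 each). Ermap encodes a red cell adhesion protein. Ermap, Car1 and Trim10 are among the markers that named the erythroid clusters, so their likeness over these classes is partly built in. Of the other members Alas2 had r = 0.85 and Slc4a1 0.81, and Klf1, Gata1 and Car2 had 0.63, 0.60 and 0.60. The genes most like Gata1 were Pdzk1ip1 (0.95), Tal1 (0.91), which encodes a partner of GATA1, Mylk3 (0.91), Mfsd2b (0.89) and Ermap (0.86).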
